A study of Mus musculus with 9 samples.

Results

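Neuronal calcium-binding proteins were examined in GABAergic neurons of the developing mouse ventral midbrain. The set holds 10 genes, taken by symbol from the 32661 endogenous nuclear genes of the expression tables: Calb1, Calb2, Pvalb, Necab1, Necab2, Necab3, Hpca, Hpcal1, Ncald and Ncs1. Of these, 9 had at least 1 count in the cells kept, and 31966 of all genes did. The mouse line was VGAT-Cre:Ai14:Pitx3-GFP. In it the vesicular GABA transporter locus drives Cre and the Ai14 reporter labels every cell that has ever expressed it with tdTomato (tdT), while GFP marks Pitx3-expressing cells of the midbrain dopamine (mDA) system. All groups shared this genotype and the ventral midbrain as tissue. Sorted tdT+ cells (VGAT cells) filled 4 plates at E16 and 3 at P0, and tdT+GFP+ cells (VGAT+Pitx3 cells) filled 1 plate at each stage, which makes 9 plates of the plate-based CEL-Seq2 method. A well was kept if 2000 or more genes were detected, if its counts did not exceed 50000 and if under 15% of them were mitochondrial, which left 2035 of 3455 wells: 1460 VGAT and 575 VGAT+Pitx3 cells.

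Calcium entering a neuron is bound by proteins with EF-hand motifs, and the genes examined fall into families with different roles. Calbindin (Calb1), calretinin (Calb2) and parvalbumin (Pvalb) bind calcium in the cytoplasm, shape calcium transients and are widely used to name classes of inhibitory neurons. Calbindin is also known for marking dopaminergic neurons of the ventral tegmental area (VTA) and the dorsal substantia nigra. The NECAB proteins (Necab1, Necab2, Necab3) join an EF-hand to a C-terminal monooxygenase-like domain, and NECAB2 binds neurotransmitter receptors. Hippocalcin (Hpca), its relative Hpcal1, neurocalcin delta (Ncald) and neuronal calcium sensor 1 (Ncs1) are calcium sensors that carry a myristoyl group. Hippocalcin and neurocalcin delta move to membranes when calcium rises, whereas NCS-1 is bound to membranes also at resting calcium.

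The plates held 44 to 305 kept cells and 1435919 to 5408710 counts, and the median count per cell ran from 7586.9 on P0 plate 2 to 34751.4 on P0 plate 1. The dopamine transporter gene Slc6a3 separated the sorts. Levels are given in CPM, counts scaled to a fixed total after each plate's own total is adjusted by a scaling factor. Slc6a3 lay at 0 to 3.36 CPM on the VGAT plates and at 703 and 634.2 CPM on the VGAT+Pitx3 plates. Of 5 GABAergic markers, Slc32a1 (the vesicular GABA transporter) lay at 158.0 to 324.4 CPM on the VGAT plates and at 225.2 and 284.8 CPM on the VGAT+Pitx3 plates. Gad2 was at 492.7 to 648.6 CPM and at 932.6 and 1042 CPM. The others were near 0 on the VGAT+Pitx3 plates: Gad1 at 14.5 and 10.3 CPM against 794.9 to 1207 CPM, Gata3 at 1.58 and 0 CPM against 421.8 to 728.3 CPM, and Tal1 at 1.81 and 0.449 CPM against 119.7 to 185.0 CPM. Markers of astrocytes and radial glia summed to 32.3 to 51.5 CPM on 6 VGAT plates, to 392.2 CPM on P0 plate 2, and to 222.3 and 192.9 CPM on the VGAT+Pitx3 plates. The stage labels conflicted inside the cell names. The first of the 2 plate labels matches the sample titles and is used here, but the second names the other stage for E16 plates 3 and 4 and for P0 plates 1 and 3. No kept cells on different plates held identical counts.

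Pvalb was not detected. It had 0 counts on all 9 plates, where 3 counts would have been 0.555 to 2.09 CPM. After each cell was thinned to 4000 counts, 0 of 298 cells on E16 plate 3 had a Pvalb count, which allows a share of up to 1.01% (3 cells of the total), while the 43 cells of P0 plate 1 allow up to 6.98%. These limits are for cells with a count at this depth, not for cells that express the gene. Such limits and the intervals given below cover counting error only.

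The 9 detected genes differed in how widely they were spread over VGAT cells. Shares are of cells with at least 1 count after thinning to 4000 counts, as mean ± SD of the 7 VGAT plates. Ncald was found in 56.2 ± 10.9% of cells, Hpcal1 in 41.9 ± 7.76% and Ncs1 in 37.4 ± 5.93%. Necab2, Hpca and Calb2 were found in 20.3 ± 4.82%, 18.6 ± 5.87% and 18.0 ± 7.27% of cells, and their SDs overlapped. Calb1 (9.87 ± 7.79%) and Necab1 (9.67 ± 3.00%) were each found in few cells, and Necab3 in 2.31 ± 1.53%. These shares set how often a molecule was caught, so they order the genes by detection and not by protein.

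The genes also differed in how much of their signal was spliced. Hpca and Calb2 were almost wholly spliced, with 99.2% and 98.4% of their counts in the spliced table, and Hpcal1, Necab2, Necab3, Calb1 and Ncs1 lay between 92.1% and 97.0%. Ncald (70.3%) and Necab1 (67.7%), whose gene bodies are the longest of the set, lay below the share of 74.0% over all genes. On the GRCm38 assembly Necab1 lies on the minus strand at chr4:14952245-15149794, and Calb1 lies on the same chromosome on the plus strand at chr4:15881264-15908064. Necab1 overlaps the antisense gene Gm11837, which had 420 counts of its own. Ncald lies on the minus strand at chr15:37366175-37792570 and overlaps Gm49397 on the same strand, which had 1612 counts, so that reads could be split between the pair. The other members lie at chr8:110137502-110168210 (Calb2, minus strand), chr8:119446719-119472640 (Necab2, plus), chr2:154544399-154558890 (Necab3, minus), chr4:129111570-129122036 (Hpca, minus), chr12:17690856-17791933 (Hpcal1, plus), chr2:31245823-31295989 (Ncs1, plus) and chr15:78191114-78206400 (Pvalb, minus). Exact stretches of 40 bases shared with another gene's transcripts covered at most 3.26% of any member, and among members Hpca and Ncald alone shared any, at 0.232% of Hpca and 0.0809% of Ncald.

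To ask whether VGAT+Pitx3 cells differ from VGAT cells, counts were summed per plate and tested across all 9 plates with stage as covariate. Necab1 was the member that stood apart. It lay at 20.7, 45.1, 37.3 and 37.9 CPM on the E16 VGAT plates and at 34.3, 26.7 and 22.5 CPM on the P0 VGAT plates. On the VGAT+Pitx3 plates it reached 152.0 CPM at E16, from 672 counts, and 212.1 CPM at P0, from 473 counts. Both VGAT+Pitx3 plates were far above all 7 VGAT plates. Necab1 was 5.69-fold higher in VGAT+Pitx3 cells (log2 fold change 2.51, SE 0.22, adjusted p = 2.246e-06, edgeR quasi-likelihood test with Benjamini-Hochberg adjustment over all genes). The share of thinned cells with Necab1 was 32.1% (exact 95% interval 26.9 to 37.7%) and 39.4% (33.3 to 45.7%) on these plates, against 5.16 to 13.2% on the VGAT plates. With spliced counts alone, which leave out intronic reads, the log2 fold change was 2.31. Sums over a plate cannot tell fewer cells with a gene from less RNA in each.

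Of the 9 tested, 1 passed the threshold (an adjusted p below 0.05), where 8.93% of all 14624 genes did, and the median log2 fold change was -0.09 against -0.000681 over all genes. Ncald was lower by a log2 fold change of -0.43 (SE 0.14, adjusted p = 0.066), Hpca was at 0.43 (SE 0.19, adjusted p = 0.245) and Necab3 at 0.68 (SE 0.24, adjusted p = 0.119) in the same edgeR fit. Ncald passed with DESeq2 (adjusted p = 0.0191) and with spliced counts (adjusted p = 0.0467), and Hpca passed with the replicate number as a block (log2 0.75, adjusted p = 0.0495). Calb1 could not be placed: its log2 fold change of -0.25 had an SE of 0.75. The ranges of the sorts did not overlap for Necab1 and Necab3, which is 2 of the members, and for 14.4% of all genes tested. Other markers moved with the same contrast: 7 dopaminergic markers summed to 112.4 to 168.8 CPM on the VGAT plates and to 3870 and 2981 CPM on the VGAT+Pitx3 plates, and the 3 vesicular glutamate transporters to 1.90 to 23.9 CPM against 108.1 and 210.4 CPM. Their part in the Necab1 difference, and that of the glial markers given above, was not tested.

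Of the 31 other EF-hand genes listed, 20 were tested between the sorts and 6 passed the threshold, 3 in each direction. Cabp1, a calmodulin-like regulator of calcium channels, had the largest fall, at a log2 fold change of -1.81 (SE 0.25), followed by the potassium channel subunit Kcnip1 (-1.03, SE 0.12) and the integrin-binding Cib2 (-0.87, SE 0.18). Kcnip4, another potassium channel subunit, rose by 1.11 (SE 0.18).

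**Figure D1:**
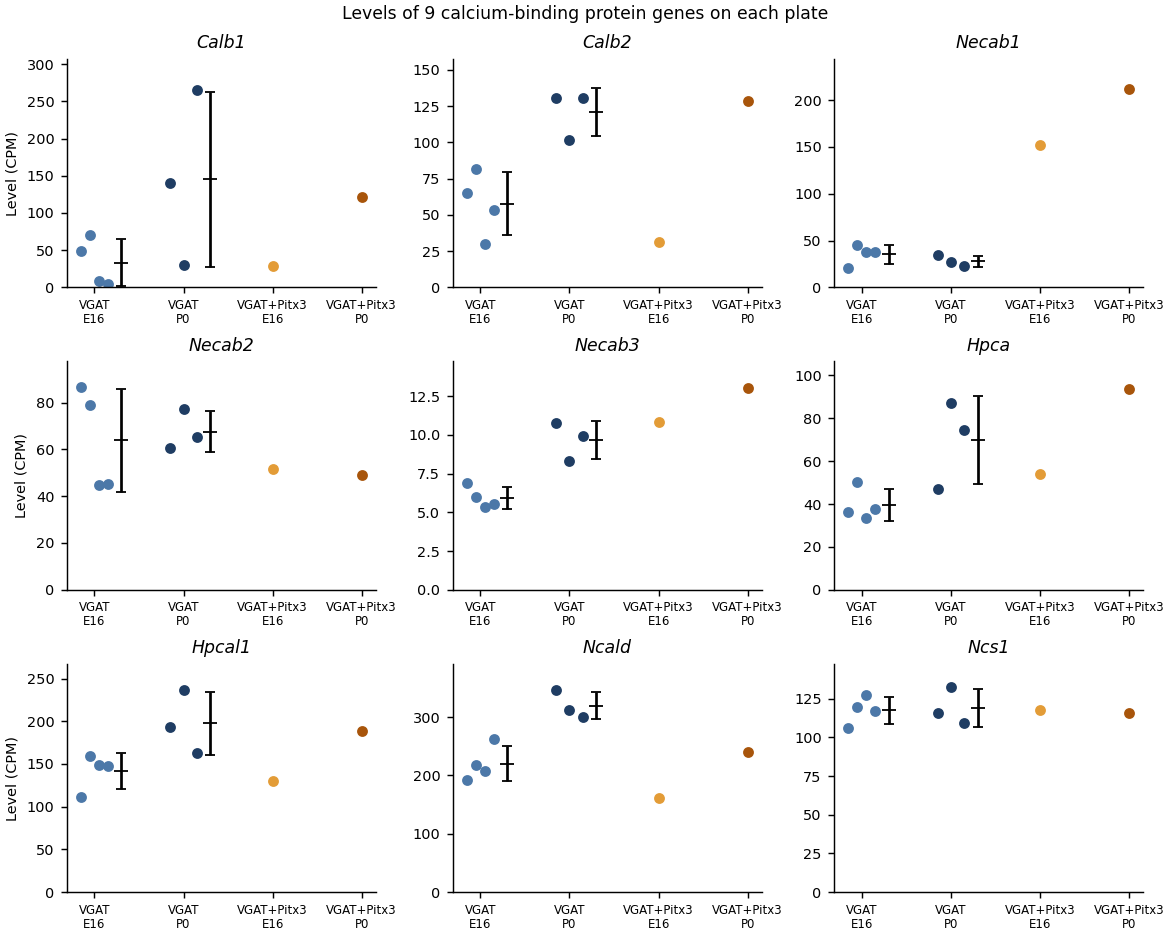
Levels in CPM (linear axes from 0) of the 9 detected genes, with 1 point per plate and, for the VGAT groups, a bar of the mean ± SD over 4 (E16) or 3 (P0) plates. Both VGAT+Pitx3 plates lie at 152.0 and 212.1 CPM for Necab1, above all VGAT plates, and the P0 VGAT plates lie above the E16 plates for Calb2, Necab3, Hpcal1 and Ncald.

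To follow the genes around birth, P0 was compared with E16 over the 7 VGAT plates. By the sample titles, Calb2, Hpca and Ncald rose. Calb2 lay at 65.3, 81.9, 30.2 and 53.1 CPM on the E16 plates and at 130.5, 101.7 and 130.8 CPM on the P0 plates. The groups did not overlap, and the fold change was 2.12 (log2 1.08, SE 0.25, adjusted p = 0.0347, edgeR quasi-likelihood). Ncald lay at 192.7, 217.9, 208.2 and 262.7 CPM at E16 and at 346.4, 312.7 and 300.5 CPM at P0, a fold change of 1.46 (log2 0.55, SE 0.13, adjusted p = 0.0352, edgeR). These ranges were also apart. Hpca lay at 36.5, 50.5, 33.5 and 37.5 CPM at E16 and at 47.1, 87.2 and 74.8 CPM at P0. It was 1.79-fold higher at P0 (log2 0.84, SE 0.20, adjusted p = 0.0357, edgeR), although P0 plate 1 lay below the highest E16 plate. P0 plate 2, which had the most Hpca and Hpcal1, is also the VGAT plate with the most astrocyte and radial glia marker signal. Without it the log2 fold change of Hpca was 0.67 (adjusted p = 0.117, edgeR). This loss was not particular to that plate, since Hpca kept its call in 2 of the 7 fits that left out a plate. Among the cell type markers, Slc32a1 (158.0 to 232.3 CPM at E16, 265.0 to 324.4 CPM at P0) and the cerebellar marker Car8 (9.89 to 13.8 CPM and 17.5 to 23.9 CPM) were also apart by stage, as were Gad2 (543.5 to 648.6 CPM and 492.7 to 529.7 CPM), Slc17a8 (1.33 to 5.05 CPM and 6.11 to 10.2 CPM) and Aldh1l1 (0 to 0.561 CPM and 1.17 to 21.1 CPM). The part of these signals was not tested.

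Calb1 had the largest estimate and the widest spread. It lay at 48.3, 70.1, 8.75 and 4.56 CPM on the E16 plates and at 139.9, 30.6 and 265.7 CPM on the P0 plates. The log2 fold change of 2.19 had an SE of 0.71 and missed the threshold (adjusted p = 0.0897, edgeR). Calb1 passed when genes of any count were tested and when E16 plate 2 was left out. Hpcal1 had means of 141.7 ± 21.2 CPM (SD, n = 4) at E16 and 197.6 ± 36.9 CPM (SD, n = 3) at P0 and did not pass (log2 0.48, SE 0.15, adjusted p = 0.0843, edgeR), nor did Necab3 with 5.94 ± 0.695 and 9.67 ± 1.24 CPM (adjusted p = 0.12). Necab1 (log2 -0.37, SE 0.25), Necab2 (0.10, SE 0.23) and Ncs1 (0.03, SE 0.12) were closest to 0. For Ncs1 the means were 117.5 ± 8.67 and 119.2 ± 12.2 CPM.

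Among the 9 members tested, 3 passed the threshold against 4.58% of 13639 genes, 8 had a log2 fold change above 0, and the median was 0.55 where the median of all genes was 0.02. The stage groups did not overlap for 4 members (Calb2, Necab3, Hpcal1 and Ncald), as for 20.6% of all genes. Of the other EF-hand genes, 3 of 20 tested passed, all higher at P0: S100a10, the partner of annexin A2, by a log2 fold change of 1.00 (SE 0.20), Cib2 by 0.61 (SE 0.14) and Vsnl1, a visinin-like sensor close to the hippocalcins, by 0.52 (SE 0.14).

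The stage calls depended on single plates, for the members and for all genes. No member passed without E16 plate 1, P0 plate 2 or P0 plate 3, where 265 of 13593, 162 of 14212 and 76 of 14360 genes did. The log2 fold changes stayed above 0, at 0.86 to 1.31 for Calb2, 0.67 to 1.03 for Hpca and 0.48 to 0.64 for Ncald, and the adjusted p ran from 0.00868 to 0.119 for Calb2, from 0.0133 to 0.124 for Hpca and from 0.0400 to 0.111 for Ncald when each plate was left out in turn (edgeR). When the second plate label gave the stage, which was added after seeing the data, 1 gene of 13639 passed (0.00733%) and no member did. The log2 fold changes were then -0.77 (SE 0.37) for Calb2, -0.05 (SE 0.34) for Hpca and -0.02 (SE 0.22) for Ncald. Under that label Calb1 was the member whose groups did not overlap, as for 7.48% of genes, with a log2 fold change of -3.42 (SE 0.72, adjusted p = 0.355, edgeR). The stage of 4 VGAT plates therefore rests on the titles.

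**Figure D2:**
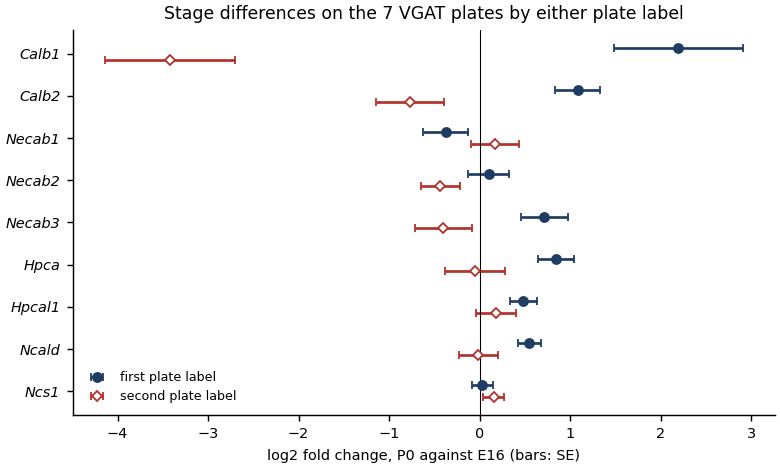
The log2 fold change of P0 against E16 over the 7 VGAT plates (x axis, bars are SE) for 9 genes, with the stage from the first plate label (filled circles) and from the second (open diamonds). Calb2, Hpca and Ncald are at 1.08, 0.84 and 0.55 by the first label and at -0.77, -0.05 and -0.02 by the second.

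Whether the stage difference differed between the sorts was tested as an interaction, with each lone VGAT+Pitx3 plate assumed to vary like the VGAT plates. No member passed, and neither did any of 15724 genes (0% called, edgeR; 998 genes had an unadjusted p below 0.05, and DESeq2 called 3). The smallest p among the members was 0.0668 for Necab1, with an interaction of 0.86 (SE 0.43). On the VGAT+Pitx3 plates Calb2 lay at 31.4 CPM at E16 and 128.7 CPM at P0, Calb1 at 28.5 and 121.1 CPM, and Hpca at 53.8 and 93.7 CPM, with 1 plate for each value.

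VGAT+Pitx3 cells were then divided by their own Slc6a3 count. Slc6a3 had no count in 117 of 304 cells at E16 (38.5%) and in 134 of 271 cells at P0 (49.4%). Each plate was split at the median of Slc6a3 per 10000 counts into cells above it (Slc6a3-high, 152 and 135 cells) and at or below it (Slc6a3-low, 152 and 136 cells), and the 4 sums were tested with the plate as a block. Calb1 was higher and Necab1, Hpcal1 and Hpca were lower in Slc6a3-high cells.

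Calb1 lay at 39.1 CPM in Slc6a3-high and 14.3 CPM in Slc6a3-low cells at E16, and at 185.5 and 39.4 CPM at P0. It was 3.77-fold higher (log2 1.91, SE 0.21, adjusted p = 9.197e-07, edgeR quasi-likelihood with Benjamini-Hochberg adjustment). Its share of thinned cells was 16.7% against 5.37% at E16 and 41.4% against 14.1% at P0. Necab1 went the other way on both plates. It lay at 43.6 CPM in Slc6a3-high and 269.0 CPM in Slc6a3-low cells at E16 and at 106.6 and 320.5 CPM at P0, 4.32-fold lower in Slc6a3-high cells (log2 -2.11, SE 0.18, adjusted p = 2.994e-08, edgeR). Among thinned cells 13.3% of Slc6a3-high and 51.0% of Slc6a3-low cells carried Necab1 at E16, and 27.3% and 52.1% at P0.

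Hpcal1 and Hpca were each lower in Slc6a3-high cells. Hpcal1 lay at 77.4 CPM in Slc6a3-high and 183.8 CPM in Slc6a3-low cells at E16, and at 140.8 and 232.4 CPM at P0 (log2 -0.996, SE 0.15, adjusted p = 6.029e-05, edgeR). Hpca lay at 38.7 and 68.1 CPM at E16 and at 73.2 and 111.5 CPM at P0 (log2 -0.71, SE 0.17, adjusted p = 0.00683, edgeR), and missed the threshold when genes of any count were tested (adjusted p = 0.0963, edgeR). Their relatives were closer to 0: Ncald at a log2 fold change of -0.19 (SE 0.13) and Ncs1 at 0.40 (SE 0.15, adjusted p = 0.134), which passed when wells over 2 times the plate median were left out (adjusted p = 0.04). Calb2 was at -0.46 (SE 0.19, adjusted p = 0.175) and passed when the split used the raw Slc6a3 count (-0.81) or set the most against the least Slc6a3-rich cells (-0.85).

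Of the 3 members that fell, Necab1 had the largest fall but no entry in the promoter table, so the promoters of the related Hpca and Hpcal1 are shown, from 250 bases before to 50 after a RefSeq start on GRCm38.p6, 5′ to 3′ on the gene's strand. Each was searched on both strands for TAATCC, the core of the sites of bicoid-type homeodomain proteins such as PITX3 and OTX2, and for AAAGGTCA, the site of NR4A2 and its relatives, and matches are in capitals. TAATCC stands in 7.06% and AAAGGTCA in 1.51% of the 32851 promoters of this length.
Hpca promoter, chr4:129121698-129121997, minus strand: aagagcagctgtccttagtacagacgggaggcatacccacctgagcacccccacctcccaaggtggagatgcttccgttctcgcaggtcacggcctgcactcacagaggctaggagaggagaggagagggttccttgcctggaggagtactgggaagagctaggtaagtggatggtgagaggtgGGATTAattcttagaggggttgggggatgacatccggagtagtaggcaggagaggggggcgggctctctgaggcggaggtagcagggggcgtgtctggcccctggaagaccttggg
Hpcal1 promoter, chr12:17690559-17690858, plus strand: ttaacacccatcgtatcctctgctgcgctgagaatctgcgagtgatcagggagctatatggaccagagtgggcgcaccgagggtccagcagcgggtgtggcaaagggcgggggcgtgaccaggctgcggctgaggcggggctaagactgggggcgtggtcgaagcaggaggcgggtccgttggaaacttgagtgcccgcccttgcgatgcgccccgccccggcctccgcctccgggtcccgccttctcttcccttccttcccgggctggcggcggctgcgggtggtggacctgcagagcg
Hpca holds 1 match to TAATCC, on the opposite strand and before the start, and Hpcal1 holds none of either motif. The GC contents were 60.3% and 68.3%. The Hpca window is the first of 3 listed for this gene, and the others held no match to either motif. Windows were at hand for 6 of the 10 members. A match is a string of letters and not a measured site.

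Finer steps of Slc6a3 showed the same order of levels. From cells without Slc6a3, through the lower part of the cells with it, to the upper part, Necab1 lay at 276.3, 163.0 and 19.7 CPM at E16 and at 303.4, 202.1 and 45.7 CPM at P0. Hpcal1 lay at 189.6, 144.3 and 53.9 CPM at E16 and at 233.5, 185.4 and 92.9 CPM at P0. Calb1 climbed from 14.8 to 26.6 and 38.8 CPM at E16 and from 37.8 to 128.6 and 225.5 CPM at P0. Calb2 had no such order at P0, with 130.4, 148.7 and 88.4 CPM. These values are a description of single plates.

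**Figure D3:**
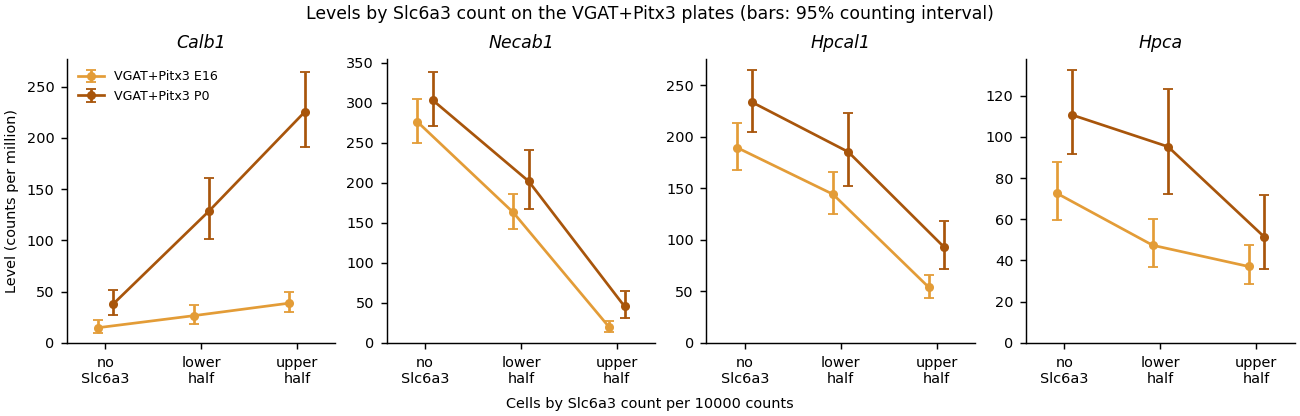
Levels in CPM (linear axes from 0) of Calb1, Necab1, Hpcal1 and Hpca in VGAT+Pitx3 cells without Slc6a3 and in the lower and upper part of the cells with Slc6a3, at E16 and P0, with exact Poisson 95% intervals of the counts. Necab1 is at 276.3 and 303.4 CPM without Slc6a3 and at 19.7 and 45.7 CPM in the upper part, and Calb1 goes the other way.

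In all, 4 of 9 members tested passed in the Slc6a3 split, where 8.30% of 11487 genes did. The other EF-hand genes passed in 6 of 19 cases, with S100a10 up by a log2 fold change of 3.56 (SE 0.29), the calneuron Caln1 by 1.34 (SE 0.14), Kcnip3 by 0.81 (SE 0.23) and Vsnl1 by 0.77 (SE 0.18). Other markers moved with the split. Besides Slc6a3, 6 dopaminergic markers summed to 4149 CPM in Slc6a3-high and 1818 CPM in Slc6a3-low cells at E16 and to 3014 and 1432 CPM at P0. The 5 GABAergic markers summed to 309.9 CPM in Slc6a3-high and 2113 CPM in Slc6a3-low cells at E16 and to 621.6 and 2080 CPM at P0, a sum that on these plates is mostly Gad2 and Slc32a1. The 3 vesicular glutamate transporters summed to 24.0 and 199.5 CPM at E16 and to 115.5 and 306.5 CPM at P0, and 6 astrocyte and radial glia markers to 132.0 and 313.8 CPM at E16 and 182.3 and 193.1 CPM at P0. At E16, 5 oligodendrocyte markers summed to 13.0 and 58.1 CPM and 3 endothelial markers to 0 and 13.8 CPM, against 47.2 and 34.7 CPM and 2.44 and 1.87 CPM at P0. Their part in the member differences was not tested. Only 2 plates and 4 sums stand behind these tests, and with DESeq2 Hpcal1 (adjusted p = 0.0524) and Hpca (adjusted p = 0.932) missed the threshold, while Calb1 and Necab1 passed. When the plate was not a block, Necab1 alone passed (adjusted p = 0.0462) and Calb1 did not (log2 2.12, adjusted p = 0.347, edgeR).

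To see where the genes differ among GABAergic neurons, VGAT cells with and without a count of 4 transcription factors were compared within each of the 7 VGAT plates. Six3 and Pax5 are used to mark neurons of the substantia nigra pars reticulata (SNr), Otx2 neurons of the VTA, and Nkx2-2 neurons of the midbrain reticular formation. After thinning, 533 cells carried Six3, 242 Pax5, 263 Otx2 and 295 Nkx2-2 out of 1408. A cell without a count may still express the factor, and the groups share cells: 128 carried both Six3 and Otx2, and 38 both Six3 and Pax5.

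Pax5 cells were rich in Necab1 and poor in Calb1 and Necab2. On the 4 E16 plates Necab1 lay at 47.1, 83.2, 75.7 and 87.3 CPM in Pax5 cells and at 18.2, 38.3, 22.9 and 24.8 CPM in the remaining cells. On the 3 P0 plates it lay at 47.9, 45.2 and 46.0 CPM against 33.6, 25.4 and 20.6 CPM. These P0 plates held only 5, 33 and 13 Pax5 cells. Necab1 was higher in Pax5 cells on 7 of 7 plates (log2 1.36, SE 0.15, adjusted p = 2.415e-05, edgeR). Calb1 was lower on 7 of 7, at 17.3 ± 20.2 against 90.5 ± 103 CPM (log2 -2.41, SE 0.21, adjusted p = 1.592e-06, edgeR), and had 1 to 14 counts in the Pax5 cells of a plate. Necab2 was lower on 7 of 7, at 42.1 ± 15.6 against 72.0 ± 15.7 CPM (log2 -0.90, SE 0.14, adjusted p = 5.171e-04, edgeR).

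Six3 cells showed Necab1 and Necab2 in the opposite directions to Pax5 cells. Necab2 lay at 88.1 ± 19.1 CPM in Six3 cells and 55.9 ± 19.0 CPM in the remaining cells and was higher on 6 of 7 plates (log2 0.75, SE 0.12, adjusted p = 0.00312, edgeR). P0 plate 2 was the exception, with 80.1 against 82.6 CPM. Necab1 lay at 19.2 ± 5.73 against 40.1 ± 14.1 CPM and was lower on 6 of 7 plates (log2 -1.10, SE 0.23, adjusted p = 0.015, edgeR), without passing when any of E16 plates 2, 3 or 4 was left out. Calb1 in Six3 cells was at a log2 fold change of -1.18 (SE 0.31, adjusted p = 0.0632, edgeR) but lower on 4 of 7 plates. It passed with spliced counts (adjusted p = 0.0125, edgeR), when genes of any count were tested and without the upper limit of counts. Leaving out wells over 2 times the plate median, or E16 plate 1, also made it pass. Whether the Six3 and Pax5 differences differ from each other was not tested, since the cells without one factor include those with the other.

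Otx2 cells were poor in Calb2, Calb1 and Ncald. Calb2 lay at 32.7 ± 23.6 against 99.7 ± 46.7 CPM and was lower on 7 of 7 plates (log2 -1.54, SE 0.29, adjusted p = 0.00348, edgeR), and Ncald at 195.0 ± 63.5 against 288.3 ± 71.0 CPM, lower on 6 of 7 (log2 -0.57, SE 0.13, adjusted p = 0.0137, edgeR). Calb1 was lower on 7 of 7 plates (log2 -1.71, SE 0.38, adjusted p = 0.0115, edgeR), yet P0 plate 3 had 248.8 CPM in its Otx2 cells, and the log2 fold change was -3.44 without that plate. When cells were assigned without thinning, the log2 fold changes for Otx2 were -0.68 (SE 0.29) for Calb2, -0.40 (SE 0.33) for Calb1 and -0.24 (SE 0.10) for Ncald and none passed, while 500 of 11011 genes did. Ncald also missed the threshold without E16 plate 3 or 4 (log2 -0.51 and -0.53).

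Nkx2-2 cells were poor in Necab1 (17.4 ± 10.1 against 37.9 ± 11.3 CPM, lower on 7 of 7 plates, log2 -1.11, SE 0.21, adjusted p = 0.0045, edgeR) and Calb1 (44.7 ± 74.3 against 94.3 ± 105 CPM, lower on 6 of 7, log2 -1.19, SE 0.27, adjusted p = 0.017). Without E16 plate 2 Calb1 missed the threshold (log2 -0.90, adjusted p = 0.0954, edgeR). Hpcal1 was higher on 6 of 7 plates, at 208.2 ± 54.6 against 159.1 ± 44.0 CPM (log2 0.38, SE 0.10, adjusted p = 0.0401, edgeR), and kept its call in 2 of the 7 fits that left out a plate. In DESeq2 Necab1 alone passed for Nkx2-2, and when cells were assigned without thinning Calb1 alone did (Necab1 log2 -0.60, adjusted p = 0.247; Hpcal1 0.23, adjusted p = 0.273).

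**Figure D4:**
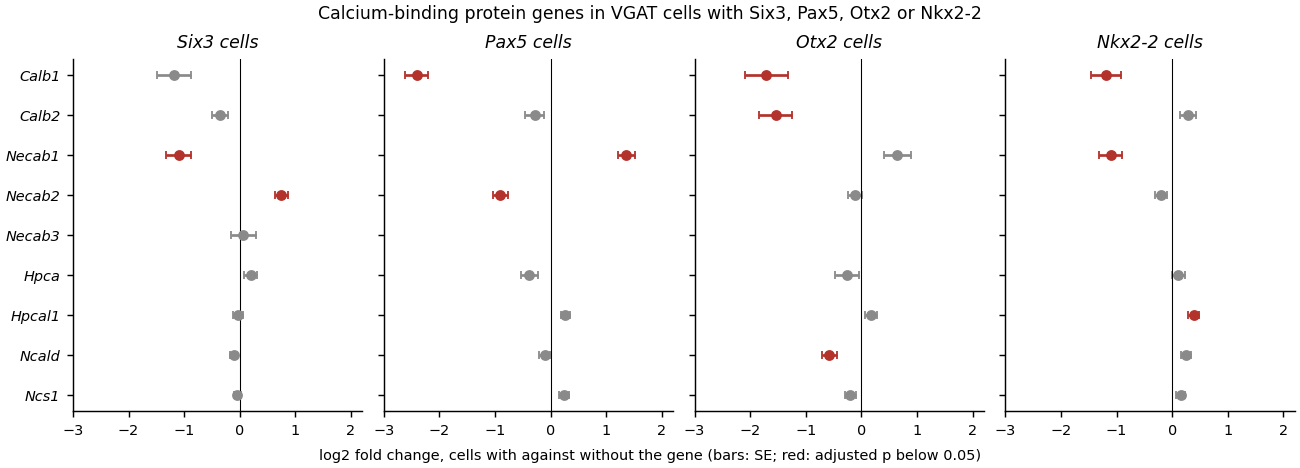
The log2 fold change (x axis, bars are SE) of each gene in VGAT cells with against without Six3, Pax5, Otx2 or Nkx2-2, over 7 plates, with genes past an adjusted p of 0.05 in red. Necab1 is at 1.36 in Pax5 cells and at -1.10 in Six3 cells, Necab2 is at -0.90 and 0.75, and Ncs1 passed in none of the 4 panels.

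Counted over these splits, 2 of 9 members tested passed for Six3 (2.25% of 11439 genes), 3 of 8 for Pax5 (4.56% of 10706), 3 of 8 for Otx2 (5.59% of 10242) and 3 of 8 for Nkx2-2 (3.27% of 10732). The median log2 fold changes of the members were -0.05, -0.20, -0.23 and 0.13, and those of all genes lay between 0.00 and 0.02. Necab3 was too low to be tested for Pax5, Otx2 and Nkx2-2. Ncs1, Hpca and Necab3 passed in none of the 4 splits, which does not show equal levels. The 4 tests share plates and cells and are therefore not separate evidence. Of the other EF-hand genes, S100a10 was at 1.17 (SE 0.19) in Pax5 cells and -0.74 (SE 0.14) in Six3 cells, Vsnl1 at 0.65 (SE 0.07) in Six3 cells, Cib2 at -0.77 (SE 0.14) in Otx2 cells and Kcnip4 at -1.03 (SE 0.17) in Nkx2-2 cells, all past the threshold.

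A further 407 VGAT cells carried none of the 4 factors. Calb1 lay at 146.9 ± 156.7 CPM in them and at 44.2 ± 55.0 CPM in the cells with any, higher on 7 of 7 plates, as was Ncald with 285.2 ± 80.1 against 256.2 ± 54.4 CPM. Of the Calb1 counts, 1212 lay in the cells with none of the factors and 591 in the cells with any. This is a description with no test.

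Much of the Calb1 signal lay in cells with Lamp5, the gene whose level followed Calb1 most closely over the 1460 VGAT cells (Pearson r 0.44 of log values per 10000 counts centred within plates, across cells of shared plates). Cells with Lamp5 were 8.67% of the thinned VGAT cells, 122 in number, and held 65.8% of the Calb1 counts. The study identified its Lamp5-positive cluster as a hindbrain cluster. Whether the Lamp5 cells counted here belong to that cluster was not tested. The pattern differed among plates. Calb1 lay at 367.8 and 354.8 CPM in Lamp5 cells of E16 plates 1 and 2 and at 774.0 and 1407 CPM in those of P0 plates 1 and 3, against 12.9, 37.9, 30.6 and 84.6 CPM in the remaining cells. On E16 plates 3 and 4 and P0 plate 2 the Lamp5 cells held 1, 0 and 4 Calb1 counts. These 3 plates are the ones that the second plate label names P0. Lamp5 itself was at 18.0 to 27.0 CPM on them and at 37.4 to 94.0 CPM on the other 4. This split was chosen after the likeness was seen and was not tested.

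**Figure D5:**
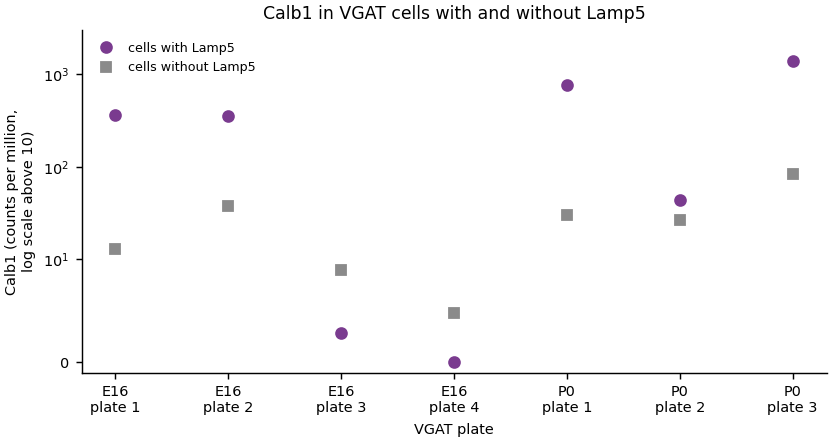
Calb1 in CPM (log scale above 10, linear below) in VGAT cells with Lamp5 (circles) and without (squares) on each VGAT plate. Lamp5 cells lie at 354.8 CPM or more on 4 plates and at 43.7 CPM or less on E16 plates 3 and 4 and P0 plate 2.

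The genes most like the other members over VGAT cells were weaker matches. Calb2 followed Calb1 (r 0.30) and Lamp5 (0.21), Necab1 followed the ephrin receptor Epha5 (0.26) and the potassium channel subunit Kcnab1 (0.25), and Necab2 followed Adarb2 (0.27). For Hpca the nearest genes were Pgm2l1 (0.19) and the calmodulin gene Calm2 (0.18), for Hpcal1 Stmn2 (0.16), and for Ncs1 Dpysl3 (0.18). The value of 0.56 between Ncald and Gm49397 belongs to genes that overlap on 1 strand. Over the 575 VGAT+Pitx3 cells, Calb1 followed Slc6a3 (0.32) and was opposite to Gad2 (-0.34), while Necab1 followed the cerebellin Cbln1 (0.45) and was opposite to Slc6a3 (-0.46). All are values across cells, which share plates and depth. Sparse counts can lower such values, which was not tested.

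Members were also compared within cells. Among thinned VGAT cells with Calb1, 32.6 ± 18.2% also carried Calb2, against 16.03 ± 7.12% of cells without Calb1, over the 6 plates with enough Calb1 cells. The difference of 16.6 points (SD 14.5) was positive on 5 of 6 plates and did not pass (exact two-sided sign-flip permutation p = 0.0625, where 0.0312 is the smallest possible, and 0.562 after Benjamini-Hochberg adjustment over 9 pairs). The other 8 pairs differed by -5.78 to 4.65 points and none passed. On the VGAT+Pitx3 plates the share of cells with Calb2 was 12.1% (exact 95% interval 3.403 to 28.2%) in cells with Calb1 and 11.3% (7.74 to 15.7%) in cells without it at E16, and 30% (19.6 to 42.1%) and 27.4% (21.0 to 34.5%) at P0, with overlapping intervals. Necab1 was carried by 18.2% of Calb1 cells and 33.8% of the remaining cells at E16, and by 28.6% and 43.6% at P0, with overlapping intervals on both plates.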

How the data were processed

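Expression was measured by CEL-Seq2 in sorted single cells on 9 plates. Per the labels and the study's methods, the authors mapped reads to mm10 with STAR and deposited expected counts per gene and well, which are molecule counts corrected for barcode collisions (the labels give 6 random bases and the study's methods another length, and the values as deposited were used), in a table of spliced and unspliced molecules together (used here) and a table of spliced molecules. Of the nonzero values, 51.7% were not whole. Whether counting used strand is not given in the sources used here. ERCC spike-ins and 34 mitochondrial genes were left out after the cell filter, no doublet caller was run, and 0 other columns of per-sample values were held. The kept cells number 2035.

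Counts were summed per plate (or per plate and group of cells) and rounded. They were tested in edgeR 4.0.16 (R 4.3.3) with filterByExpr, TMM factors, glmQLFit and glmQLFTest and Benjamini-Hochberg adjustment over all genes at 0.05, and in DESeq2 1.42.0 as an alternative. Levels are CPM on TMM-scaled totals, except in the finer Slc6a3 steps, the Lamp5 comparison and the floor of 3 counts, which use plain totals. The scripts were tested on simulated data. A sum needed at least 5 cells, and shares left out 79 kept cells with under 4000 counts. Each plate is 1 replicate. Which animals filled which plate is not given in the sources used here. The p-values between sorts, between stages and for their interaction therefore measure the spread between plates, which may be technical. In the Slc6a3 and transcription factor splits the plate was a block, so their p-values measure how differences within plates vary among plates. That variation may be technical as well. Positions come from GENCODE and promoters from RefSeq. The members, the other EF-hand genes and the splits were chosen with earlier results of these data known. Named were all members, up to 4 other EF-hand genes per comparison with the largest change among those past the threshold, and the genes most correlated with each member found in at least 10% of cells. Alternatives were RLE scaling, DESeq2, testing genes of any count, the spliced table, other well limits, other splits and thinning depths, blocks, and leaving out each plate.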

Additional observations from a re-analysis of the deposited data

How the results depend on the processing

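Of 558 values under an alternative, 470 were unchanged. These values are the member log2 fold changes together with the counts of genes called for Slc6a3. For a fold change, unchanged means the same direction and side of the threshold. Necab1 passed between the sorts under every setting (log2 2.09 to 2.96). Counts of called genes moved more. Without each plate in turn, 625 to 1397 genes passed between the sorts, 76 to 833 between stages (fewest without P0 plate 3), 0 in the interaction, 172 to 298 for Six3, 290 to 653 for Pax5, 371 to 593 for Otx2 and 233 to 388 for Nkx2-2. With DESeq2, 944 genes passed between stages, 3 in the interaction and 290 for Slc6a3. With no filter on low counts, these were 1588, 66 and 525, and 705 for Six3, 879 for Pax5, 1080 for Otx2 and 644 for Nkx2-2. Without the upper limit of counts 802 passed for Pax5, and with Six3 assigned without thinning 91 passed. The second plate label left 1 gene between stages. The cause of these moves was not tested.

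Replicate numbers did not pair the plates: deviations of same-numbered E16 and P0 plates correlated at 0.04, 0.06 and 0.04. With the replicate number as a block, 908 genes passed between the sorts, 210 between stages and 0 in the interaction. In the block fit Calb2 missed the stage threshold (adjusted p = 0.065, edgeR). When the plate was not a block, 170 genes were called for Slc6a3, 46 for Six3, 192 for Pax5, 233 for Otx2 and 97 for Nkx2-2. The members still called were then Necab1 for Slc6a3, Necab1 for Six3, Necab1 and Necab2 for Pax5, and none for Otx2 and Nkx2-2. Between the sorts Hpca passed with the replicate block.

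Reversed directions were all of members that did not pass, except by the second label. Between the sorts, leaving out plates took Calb1 from -0.49 to 0.16, Calb2 from -0.88 to 0.073 and Ncs1 from -0.051 to 0.013. The second label gave Calb1 1.35, and Hpcal1 was at 0.000634 without wells over 2 times the plate median. The block put Hpcal1 at 0.10 and Ncs1 at 0.078, and spliced counts put Ncs1 at 0.0041. Between stages, leaving out plates took Necab2 from -0.045 to 0.27 and Ncs1 from -0.068 to 0.088, Ncs1 was at -0.056 with no filter and -0.004277 with spliced counts, and the second label gave Calb1 -3.42, Calb2 -0.77, Necab1 0.17, Necab2 -0.43, Necab3 -0.40, Hpca -0.052 and Ncald -0.016.

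Shares rose with depth. Thinned to 8000 counts and unthinned, the means were 28.1% and 40.7% for Calb2, 14.6% and 23.8% for Necab1, 33.7% and 49.4% for Necab2, 4.21% and 12.2% for Necab3, 29.3% and 45.6% for Hpca, 64.4% and 79.0% for Hpcal1, 75.0% and 83.6% for Ncald, and 59.7% and 78.4% for Ncs1, and 20.7% unthinned for Calb1. Without thinning 3 pairs of members passed (Calb1 and Calb2, Hpca and Ncald, Hpcal1 and Ncald).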
